A study of Homo sapiens with 8 samples.

Results

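The Fanconi anemia and homologous recombination genes described here are 41 listed symbols, and all 41 were among the 15221 genes that had enough reads to be tested, out of 35113 genes with a matched transcript. They are a list of named genes of crosslink repair, with no threshold on measured values, though it was drawn up with earlier results of these data known. RNA was sequenced from an HPV− and an HPV+ head and neck squamous cell carcinoma line, UPCISCC89 and UDSCC2, and from a cisplatin resistant clone of each. The 8 libraries formed 4 groups of 2, namely HPV− parental, HPV− resistant, HPV+ parental and HPV+ resistant cells. Each resistant group was 1 single-cell clone, obtained by long-term exposure of the parental line to escalating cisplatin and then kept without the drug, so a feature of that clone and a feature of resistance cannot be told apart. The HPV+ cells had been selected at higher doses than the HPV− cells. The sources do not say whether both libraries of 1 group were grown as separate cultures, and the p-values therefore measure only the spread between these libraries, which may be technical.

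Cisplatin joins the strands of DNA through interstrand crosslinks, which the Fanconi anemia pathway removes in dividing cells. A core complex built from FANCA, FANCB, FANCC, FANCE, FANCF, FANCG, FANCL and FANCM attaches ubiquitin to FANCD2 and FANCI, nucleases gathered by SLX4 then cut beside the lesion, and the broken duplex is rejoined by homologous recombination. That last step needs end resection, strand exchange with the help of BRCA2, RAD51C, RAD51D, XRCC2 and XRCC3, and signalling through the ATM and ATR kinases. Loss of many of these genes makes cells very sensitive to crosslinking drugs.

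The libraries held 20250246 to 27341284 read pairs. Summed TPM (transcript abundance corrected for length and depth) of 10 squamous epithelium markers ranged from 12700 to 13500 in HPV− parental, 2540 to 3200 in HPV− resistant, 2180 to 2330 in HPV+ parental and 2670 to 3240 in HPV+ resistant cells, and none of the 10 fell under 1 TPM in both libraries of any group. By the test used below, 9 of the 10 were lower in HPV− resistant than in HPV− parental cells, where 14.1% of all genes tested were. In HPV+ resistant against HPV+ parental cells 2 were higher and 2 lower, where 7.65% of all genes were higher and 10.5% lower. The 16 markers of other cell types summed to 106 to 127 TPM in HPV− parental, at most 76.7 in HPV− resistant, 879 to 1050 in HPV+ parental and 436 to 858 TPM in HPV+ resistant cells. Most of the HPV− sum came from CD68, a gene of macrophage lysosomes, at 93.8 and 107 TPM in the parental and 25.3 and 49.2 TPM in the resistant libraries (log2 fold change −1.62, edgeR adjusted p = 0.0033). Most of the HPV+ sum came from COL3A1, LUM and DCN, genes of connective tissue, of which COL3A1 reached 311 to 693 TPM and all 3 were at or near 0 in HPV− cells. Other connective tissue genes did not follow them, with COL1A1 at 1.72 to 4.58 TPM, COL1A2 at most 0.724 TPM and PDGFRB at 0 in HPV+ cells. COL1A1 was higher in HPV− resistant than in HPV− parental cells (log2 fold change 0.99, edgeR adjusted p = 0.0196). PTPRC and CHGA stayed at or near 0 throughout. The part of these differences in the results given here was not tested.

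Every repair gene was expressed. Apart from FANCB, the lowest count of any of them in a library was 164 read pairs and the highest 5873. On the length-corrected TPM scale, averaged over the 8 libraries, the highest levels belonged to UBE2T (103.0 TPM), the ubiquitin-conjugating enzyme of the pathway, FANCI (88.7 TPM) and RAD51C (73.6 TPM). The lowest were those of FANCM (4.88 TPM), FANCB (4.39 TPM) and SLX4 (3.75 TPM). All other levels below are CPM, counts divided by the scaled size of each library, which compare 1 gene between libraries but not genes of different length.

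Upon development of resistance the HPV− cells had less RNA of several of these genes. In the HPV− resistant clone 9 of the 41 genes were lower than in the parental cells (FANCG, UBE2T, EME1, MUS81, XRCC2, RAD54B, NBN, CHEK1 and TOPBP1) and 2 were higher (FANCF and SLX4). A gene was counted when its adjusted p was under 0.05 in edgeR's quasi-likelihood test, with Benjamini-Hochberg adjustment across the 15221 genes. In the same comparison 26.8% of all genes tested were called, 12.8% higher and 14.1% lower, so the share of the repair genes called equalled the background while more of them lay on the lower side. An unadjusted p under 0.05 was found for 6 higher and 14 lower repair genes, where 39.2% of all genes had one, 19.8% higher and 19.5% lower. The median log2 fold change was −0.26 over the repair genes, with 30 of 41 negative, against 0.04 over all genes. None passed both the adjusted p and a 2-fold change (log2 fold change beyond 1), a criterion met by 6.06% of all genes as higher and 5.22% as lower; DESeq2 also called none, and none had an unadjusted p under 0.05 with such a fold.

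The core complex moved in both directions in the HPV− cells. FANCG, which binds FANCA within the complex, stood at 82.8 and 57.3 CPM in the parental libraries and at 30.9 and 40.04 CPM in the resistant ones. The groups did not overlap, and FANCG fell 1.97-fold (log2 fold change −0.98, SE 0.19, edgeR adjusted p = 0.00489). FANCF, the adaptor between subcomplexes, went the other way, from 9.03 and 9.69 CPM to 15.1 and 17.1 CPM. It was higher in each resistant library, by 1.72-fold (log2 fold change 0.78, SE 0.18, edgeR adjusted p = 0.0112). The other 6 subunits did not pass the test, with log2 fold changes from −0.02 to 0.37 apart from FANCB, and the median over all 8 was 0.14.

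FANCB, the partner of the ubiquitin ligase FANCL, had the largest SE of the 41 genes. It was at 20.1 and 13.2 CPM in the HPV− parental libraries, at 9.52 CPM in HPV− resistant replicate 1 and at 1.047 CPM in HPV− resistant replicate 2. The low value came from 1 library only, with 21 read pairs against 189 in its fellow replicate. With a log2 fold change of −1.66 and an SE of 0.87 the change did not pass (edgeR adjusted p = 0.218). In that library the 21 read pairs were assigned to a transcript marked for nonsense-mediated decay and to a retained intron, with 0 on the protein-coding transcripts. Counting error alone would allow up to 14.3% on the latter. That limit does not bound the share, because the split was estimated. The decay transcript FANCB-204 and the coding FANCB-206 have similar lengths, 3040 and 3017 bases. HPV− resistant replicate 1 carried 176 read pairs on the protein-coding transcript FANCB-206, and 92.9% of its FANCB counts were there. Since both libraries are labelled as the same clone, the difference lies between replicates.

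**Figure D1:**
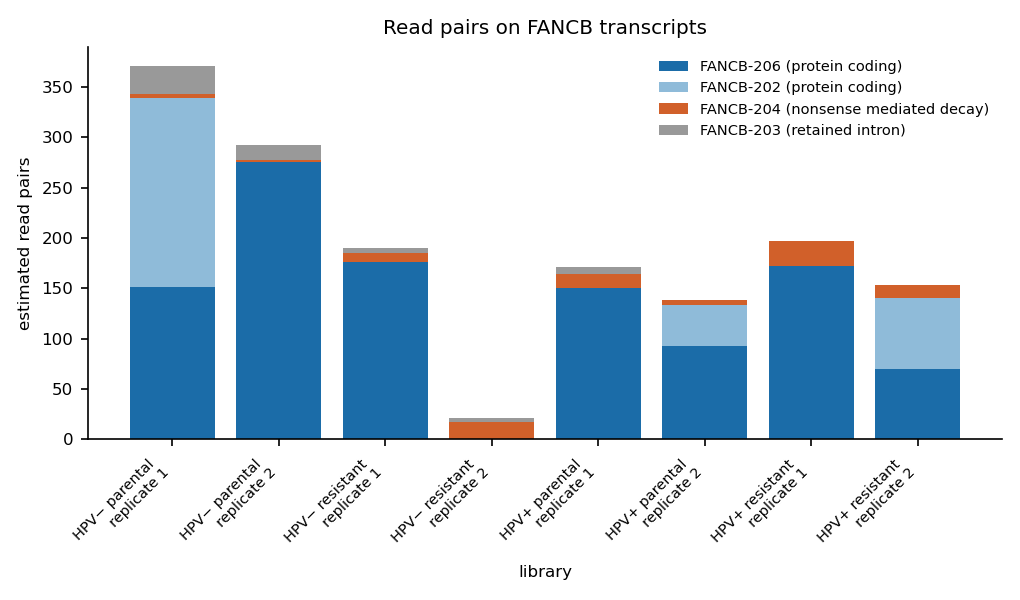
Estimated read pairs on the 4 FANCB transcripts shown (vertical axis, bars stacked from 0) in each of the 8 libraries (horizontal axis). HPV− resistant replicate 2 has no segment for the protein-coding transcripts FANCB-206 and FANCB-202, while all other libraries have at least 1 of them.

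Of the genes that attach and remove ubiquitin on the FANCD2-FANCI pair, UBE2T was lower in the HPV− resistant cells, with a log2 fold change of −0.62. FANCD2, FANCI and the deubiquitinase USP1 had log2 fold changes of −0.31, −0.18 and −0.35 and did not pass. Thus all 4 had a negative sign, and 1 passed.

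Among the nucleases the 2 subunits of the MUS81-EME1 junction nuclease fell together in the HPV− cells. MUS81 was at 100.1 and 58.0 CPM in the parental libraries and at 37.1 and 46.4 CPM in the resistant ones. EME1 was at 30.5 and 21.2 CPM in the parental and at 14.6 and 14.2 CPM in the resistant libraries. For neither gene did the groups overlap, although the parental libraries differed widely. MUS81 fell 1.89-fold (log2 fold change −0.92, SE 0.23, edgeR adjusted p = 0.0163) and EME1 fell 1.8-fold (log2 fold change −0.85, SE 0.19, edgeR adjusted p = 0.00968). SLX4, the scaffold that binds this nuclease, rose from 14.6 and 21.4 CPM to 27.8 and 27.3 CPM (log2 fold change 0.61, SE 0.20, edgeR adjusted p = 0.0432). The call for SLX4 was lost under 10 of 17 alternative settings. FAN1, a nuclease recruited by ubiquitinated FANCD2, had a log2 fold change of −0.07.

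BRCA1, BARD1, BRIP1, PALB2 and BRCA2, which act together in recombination, showed no change that passed in the HPV− cells. Their log2 fold changes ranged from −0.36 to −0.03, and 1 of the 5 had an unadjusted p under 0.05.

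RAD54B, a motor protein of recombination that acts on chromatin, was the repair gene with the smallest p in the HPV− cells. Its levels were 43.4 and 40.8 CPM in the parental and 23.1 and 24.1 CPM in the resistant libraries, far apart in relation to the spread within groups. It fell 1.78-fold (log2 fold change −0.83, SE 0.15, edgeR adjusted p = 0.00298), and of the 11 calls in this comparison it was the only one kept in all 17 alternative settings, with log2 fold changes from −0.95 to −0.75. Its relative RAD54L had a log2 fold change of −0.24 and RAD52, which anneals single strands, of 0.59; neither passed. In the group of RAD51C, RAD51D, XRCC2 and XRCC3, which act in complexes, XRCC2 was lower (log2 fold change −0.51), while RAD51C, RAD51D and XRCC3 had values of 0.02, −0.14 and −0.54 and did not pass.

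NBN, the subunit of the MRE11-RAD50-NBN complex that recruits ATM to breaks, was at 118 and 166 CPM in the HPV− parental and at 86.9 and 76.3 CPM in the HPV− resistant libraries. In CPM the groups were apart, and the fall was 1.74-fold (log2 fold change −0.80, SE 0.19, edgeR adjusted p = 0.0110). On the length-corrected scale they overlapped, at 24.8 and 40.8 TPM in the parental and 26.0 and 22.8 TPM in the resistant libraries. The fall in NBN is thus less certain than its CPM values show. MRE11 and RAD50 did not pass, at −0.26 and 0.05, and nor did RBBP8 (−0.30), the resection factor CtIP, or the BLM helicase (−0.49).

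In the signalling group the ATR branch held the 2 genes that fell. TOPBP1, the activator of ATR, was at 178 and 224 CPM in the parental and at 128 and 136 CPM in the resistant HPV− libraries. The fall was 1.52-fold (log2 fold change −0.60, SE 0.15, edgeR adjusted p = 0.0143). CHEK1, the kinase that ATR activates, had a log2 fold change of −0.63 and also passed. The remaining 6 genes did not pass: ATM (0.47), ATR (−0.42), its partner ATRIP (−0.25), CHEK2 (−0.37), MDC1 (−0.07) and TP53BP1 (0.26).

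**Figure D2:**
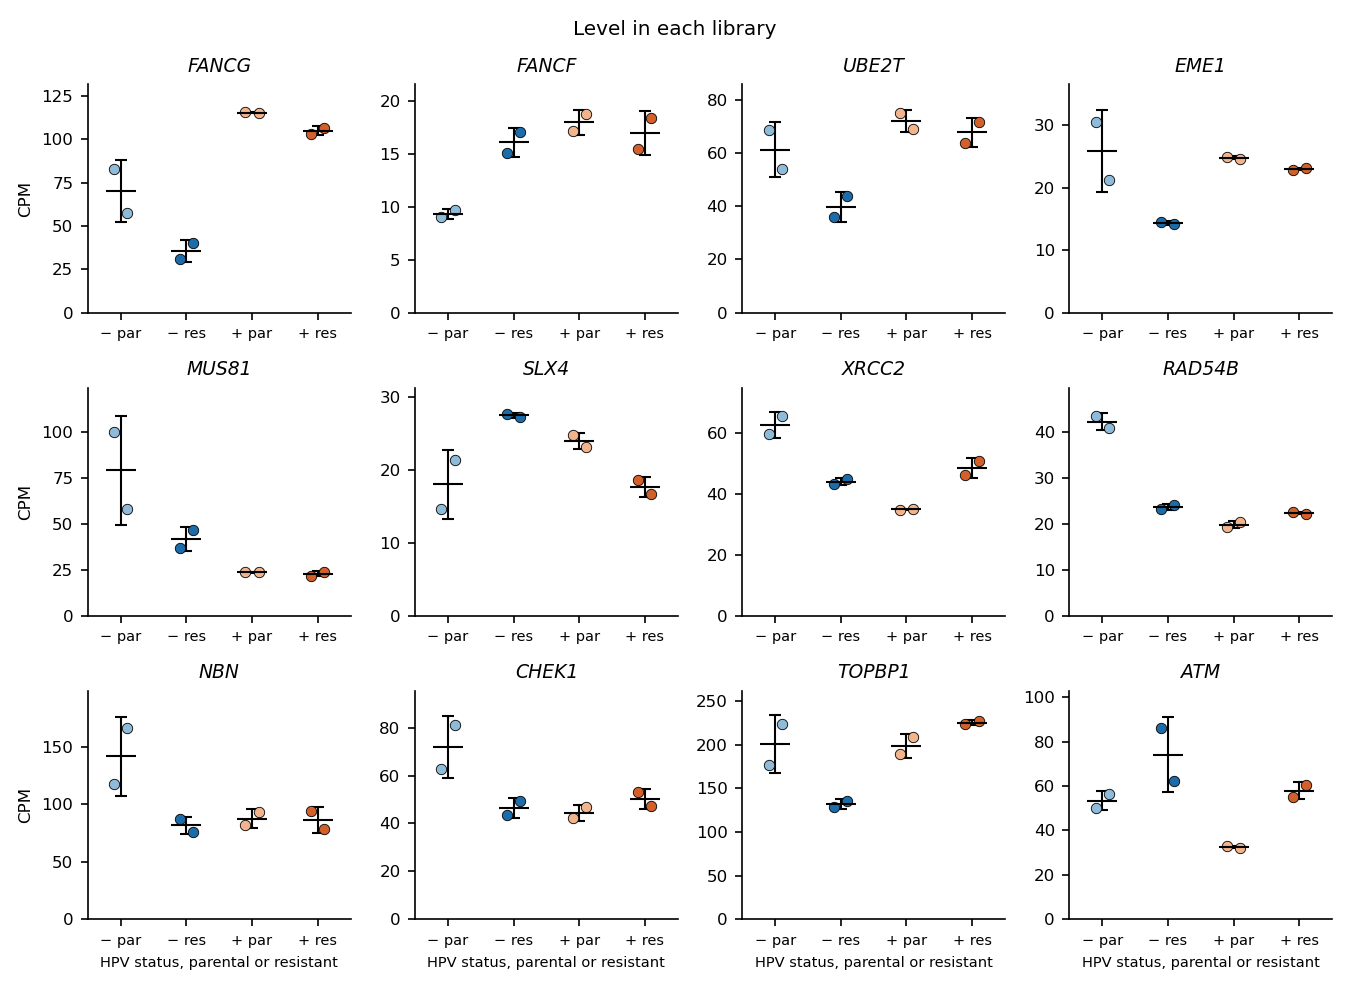
Level in CPM (vertical axes, from 0) of 12 repair genes in each library of the 4 groups (horizontal axes), with − and + for HPV status, par for parental and res for resistant; points are libraries, bars the mean and SD of 2 libraries. FANCG, EME1, MUS81, RAD54B, NBN, CHEK1 and TOPBP1 are lower in both HPV− resistant than in both HPV− parental libraries, and ATM and XRCC2 are higher in both HPV+ resistant than in both HPV+ parental libraries.

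Genes of cell division were lower as well. Of 31 tested proliferation genes (cyclins, replication and mitosis genes), 20 were lower and 0 higher in the HPV− resistant cells by edgeR's test. Of all genes tested 14.1% were lower and 12.8% higher. The median log2 fold change of the 31 genes was −0.58, and at an unadjusted p under 0.05, 0 were higher as well. Among them CDC45, a subunit of the replicative helicase, had a log2 fold change of −1.66, cyclin gene CCNE2 of −1.27 and the mitotic kinase gene AURKB of −1.22. The part of this list in the fall of the repair genes was not tested, and in bulk RNA fewer cells of a type and less RNA per cell cannot be told apart.

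The count varied when single libraries were left out. A group left with 1 library can weaken the test for every gene, and the share of all genes called in such fits is not given here. No called gene changed sign. Over the 17 alternative settings the log2 fold change was −1.30 to −0.70 for FANCG and −1.16 to −0.57 for EME1. Without HPV− resistant replicate 1 the lower genes numbered 3 in place of 9, of which RAD54B and NBN were in the original 9. Without HPV− resistant replicate 2, NBN, FANCF and SLX4 lost their calls. Without HPV− parental replicate 1 MUS81, UBE2T and SLX4 did, while the number lower was 13. The MUS81 call was also lost with protein-coding transcripts only (log2 fold change −0.63, edgeR adjusted p = 0.0855), the NBN and XRCC2 calls with an offset for transcript length, and that of XRCC2 with the 4 HPV− libraries alone.

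The HPV− changes were also read against the genes that lie next to each repair gene. Around FANCG on chromosome 9, the 10 tested genes on each side had a median log2 fold change of −0.69, and 11 of these 20 neighbours were lower by the same test. Around MUS81 on chromosome 11 the median was −0.61 and around NBN on chromosome 8 it was −0.53, again with 11 of 20 lower. RAD54B, also on chromosome 8, had neighbours with a median of −0.41, of which 10 of 20 were lower. NBN and RAD54B share 7 of these neighbours, so they are not separate cases. Thus for 4 of the 9 lower genes at least 10 of 20 neighbours were lower, where 14.1% of all genes were. Of the CHEK1 neighbours (median −0.07) 6 of 20 were lower and 0 higher, and of the TOPBP1 neighbours (median −0.13) 5 were lower and 1 higher. For EME1 (median 0.20) and UBE2T (0.16) 2 neighbours were lower, and for XRCC2 (0.13) 3 were. SLX4 on chromosome 16 rose among neighbours with a median of 0.55, 8 of 20 of them higher, and FANCF among neighbours with a median of −0.01. Why neighbouring genes moved with some repair genes was not tested.

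**Figure D3:**
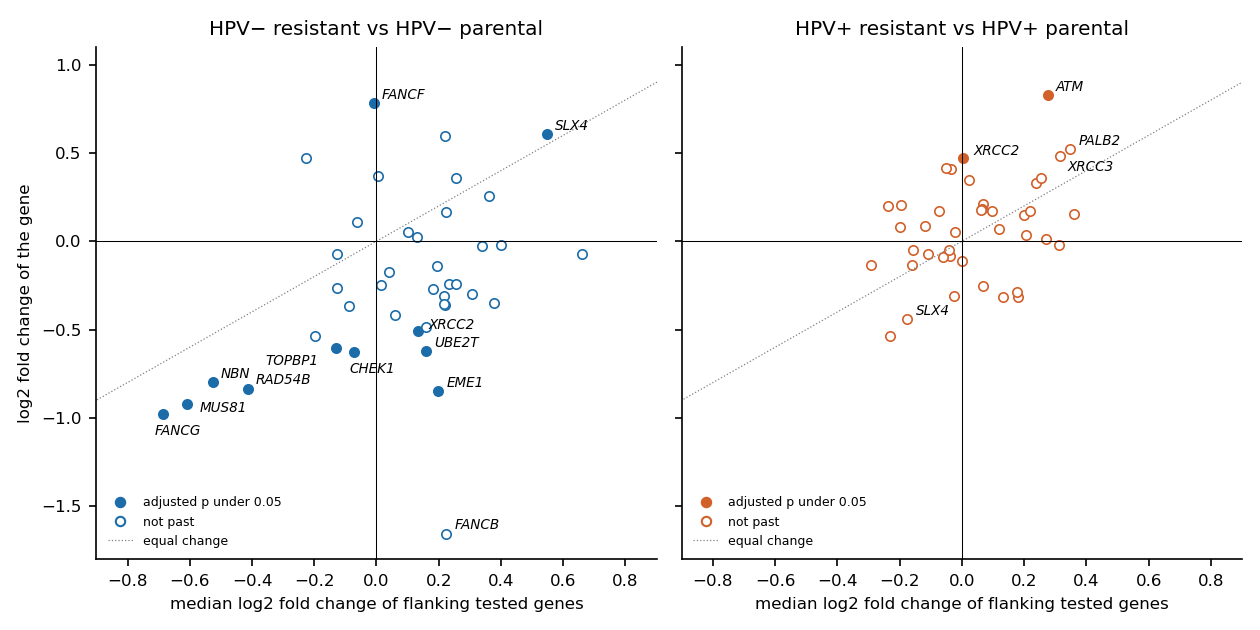
Log2 fold change of each repair gene (vertical axis) against the median log2 fold change of up to 10 tested genes on each side (horizontal axis), HPV− cells on the left and HPV+ cells on the right; filled points passed an adjusted p under 0.05 and the dotted line marks equal change. FANCG, MUS81, NBN and RAD54B sit at the lower left with neighbour medians from −0.69 to −0.41, whereas EME1, UBE2T and XRCC2 sit at neighbour medians above 0.

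Because E2F factors drive many replication and repair genes in dividing cells, the promoters of the repair genes were searched for an E2F core, spelled TTCCCGC or else TTCGCGC or else TTGCCGC or else TTGGCGC, on either strand. RefSeq promoter sequences (GRCh38), read over the 250 bases upstream of each gene's start, were at hand for 38 of the 41 genes. A match was found in 11 of 38 (28.9%), against 17.1% of 11359 promoters of tested genes and 3009 of all 27305 promoters. Of 7 lower genes with a promoter sequence, 3 held a match. The other genes with a match were FANCA, FANCC, FANCL, RAD51D, RAD54L, RAD52, BLM and MDC1, none of them called lower in the HPV− cells. Only the sequences of the 3 lower genes are shown, because these genes fell in the HPV− cells. Each is given 5′ to 3′ on the gene's strand with the match in capitals. FANCG is at chr9:35080009-35080037, minus strand, EME1 at chr17:50373138-50373166, plus strand, and TOPBP1 at chr3:133661934-133661962 and chr3:133661931-133661959, minus strand, where the 2 matches overlap each other.
FANCG: cctcggtggaaGCGGGAAcccaggaggac
EME1: ccgggtcctcaGCGCCAAcaccaccgacg
TOPBP1, first match: cggccgcgcggTTGGCGCgaaagtcggtt
TOPBP1, second match: ccgcgcggttgGCGCGAAagtcggttccc
The matches began 84 bases upstream of the start in FANCG, 80 in EME1, and 10 and 7 in TOPBP1. The cell cycle homology region (TTTGAA or TTCGAA, either strand) was found in 5 of 38 promoters (13.2%, against 10.0% of tested genes and 14.6% of all promoters), and the CCAAT box in 18 (47.4%, against 34.9% and 33.0%). A match is a description of letters and not a binding site.

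Few of the genes were called in the HPV+ cells by the fit to all 8 libraries, which share 1 spread. In the HPV+ resistant clone 2 of 41 genes were higher, XRCC2 and ATM, and 0 were lower, where 18.1% of all genes tested were called, 7.65% higher and 10.5% lower. Judged by unadjusted p under 0.05, 7 lay above and 3 below the parental level, where 33.0% of all genes had such a p, 15.1% higher and 18.0% lower. DESeq2 called 3 higher and 0 lower, and of all 35113 genes, unfiltered, it called 4.09% higher and 4.97% lower. Those 35113 include genes with too few reads for edgeR's test, unlike the repair genes, so the DESeq2 counts and shares have unlike bases. No gene passed with a 2-fold change, at a background of 3.40% higher and 4.60% lower, nor did any by DESeq2 or at an unadjusted p with such a fold. The 95% interval of the log2 fold change stayed within ±1 for 37 of the 39 genes that were not called, and FANCB and ATRIP were the exceptions. The median log2 fold change was 0.08 with 25 of 41 positive, against 0.00 over all genes. A fit to the 4 HPV+ libraries alone called more, 8 higher and 4 lower, and the share of all genes called in it is not given here.

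ATM, the kinase that responds to double-strand breaks, was at 32.8 and 32.2 CPM in the HPV+ parental and at 55.0 and 60.5 CPM in the HPV+ resistant libraries. In CPM the replicates were close and the groups far apart, with a rise of 1.78-fold (log2 fold change 0.83, SE 0.17, edgeR adjusted p = 0.00889). On the length-corrected scale the HPV+ resistant replicates were wide apart, at 6.14 and 12.45 TPM. The HPV+ parental libraries were at 4.44 and 4.53 TPM, so the size of the rise in ATM is less certain than its CPM values show. XRCC2, a recombination gene, rose from 34.8 and 35.0 CPM to 46.2 and 50.8 CPM (log2 fold change 0.47, SE 0.13, edgeR adjusted p = 0.0331). The neighbours of ATM had a median log2 fold change of 0.28 and those of XRCC2 of 0.005. PALB2, the bridge between BRCA1 and BRCA2, lay just outside the threshold at 0.52 (edgeR adjusted p = 0.0506).

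All 5 of the BRCA proteins and partners had a positive sign in the HPV+ cells, with a median of 0.35, but 0 passed by edgeR's test; 3 had an unadjusted p under 0.05, and PALB2 was the 1 called by DESeq2. The core complex (median −0.01), the ubiquitin cycle (0.004) and the nucleases (−0.08) held no gene that passed, and the resection genes with BLM had a median of 0.17. Of the 31 proliferation genes 10 were lower and 0 higher in the HPV+ resistant cells (median −0.35), where 10.5% of all genes were lower and 7.65% higher. The smallest p among the 31 belonged to AURKA (−1.16), PLK1 (−1.005) and CCNB1 (−0.79). The part of this list in the HPV+ results was not tested either.

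Both HPV+ calls were lost in some fits, while their direction held. Over the 17 alternative settings the log2 fold change was 0.76 to 0.97 for ATM and 0.40 to 0.54 for XRCC2. The share of all genes called in the fits below is not given here, and a group left with 1 library can weaken the test for every gene. Without either HPV+ parental library, or without HPV+ resistant replicate 2, 0 genes were called higher, and without HPV+ resistant replicate 1 the count was 1. The ATM call was also lost with an offset for transcript length (log2 fold change 0.97, edgeR adjusted p = 0.0567), and the XRCC2 call without the filter on low counts (log2 fold change 0.46, edgeR adjusted p = 0.0517). A fit to the 4 HPV+ libraries alone, with a spread estimated from them, called 8 higher and 4 lower, and leaving out either HPV− parental library gave 7 higher.

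**Figure D4:**
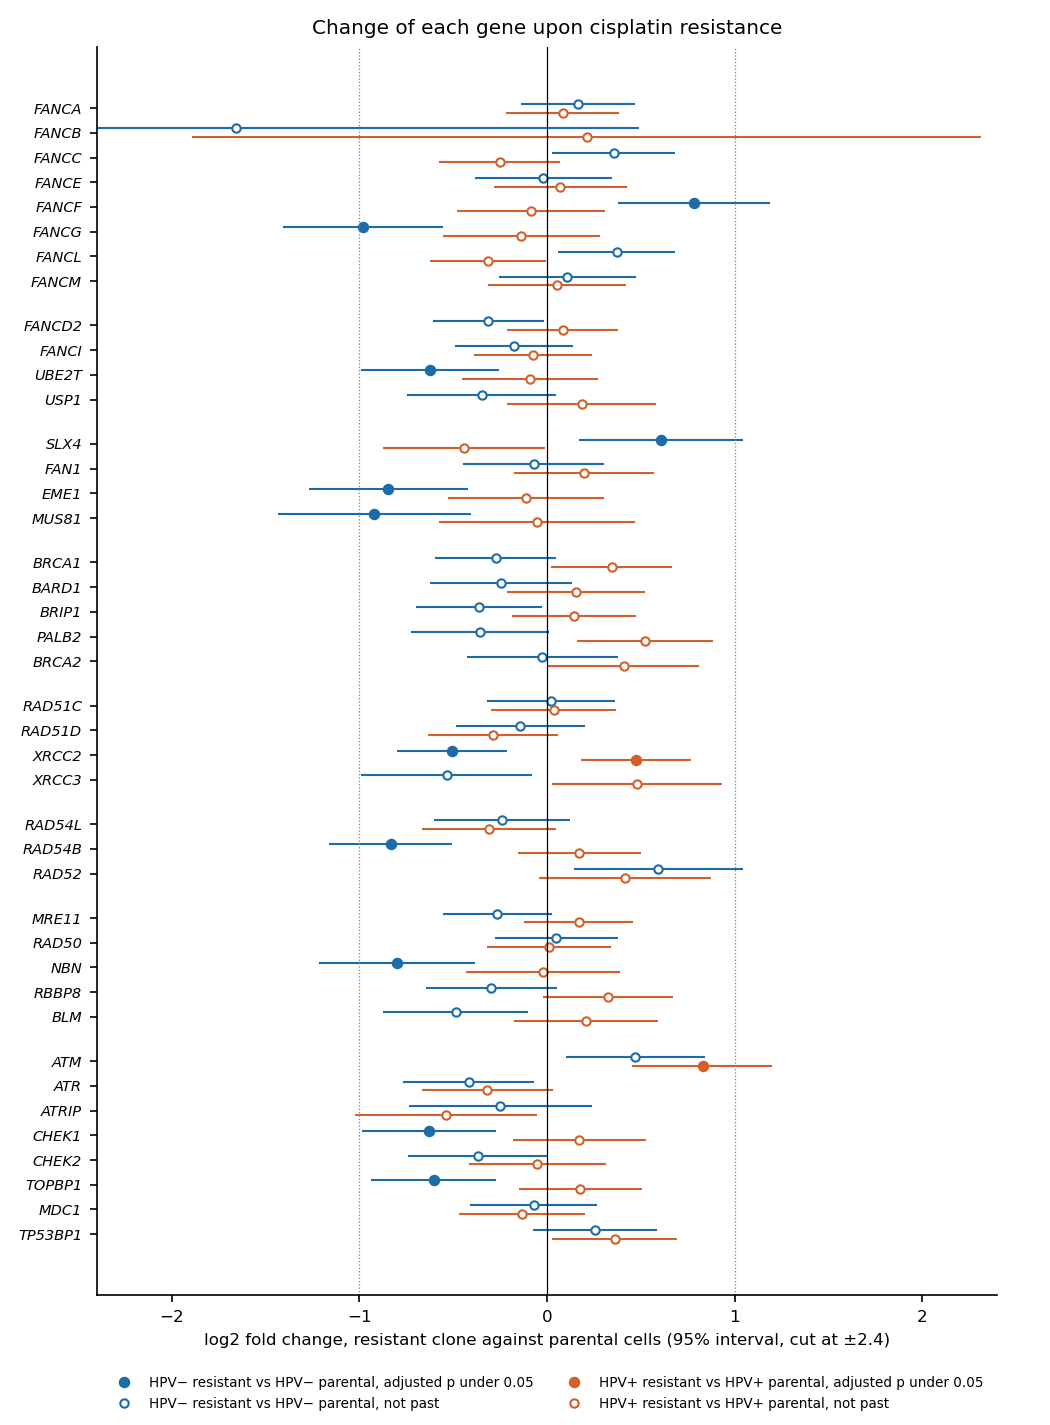
Log2 fold change of each of the 41 repair genes (horizontal axis) with its 95% interval, cut at ±2.4, for the HPV− (blue) and HPV+ (orange) resistant clone against its parental cells; genes are grouped by role and filled points passed an adjusted p under 0.05. Most HPV− points lie left of 0 (30 of 41), whereas 25 of 41 HPV+ points lie right of it, and only FANCB lies beyond the dotted lines at ±1.

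Whether the lines differed in their response was tested directly as the change in HPV+ cells minus the change in HPV− cells. By this test 6 genes had a higher change in HPV+ cells (PALB2, XRCC2, XRCC3, RAD54B, CHEK1 and TOPBP1) and 3 a lower one (FANCF, FANCL and SLX4), where 16.7% of all genes were called, 8.16% higher and 8.57% lower. DESeq2 called 10 higher and 1 lower, and of all 35113 genes, unfiltered, it called 4.35% higher and 3.92% lower. Here too the 35113 include genes with too few reads for edgeR's test, so that share is no like background for the repair genes. An unadjusted p under 0.05 was found for 16 and 4 by edgeR, where 31.2% of all genes had one, 15.1% higher and 16.1% lower. The median difference was 0.39 over the repair genes, 29 of 41 positive, against −0.03 over all genes. Of the differences that passed, those of XRCC3, RAD54B and SLX4 were beyond 1 on the log2 scale, where 5.17% of all genes had one upward and 6.57% downward. Without any 1 HPV+ library 2 higher and 0 lower differences passed, without HPV− resistant replicate 1 or 2 the counts were 3 or 4 and 0, and without HPV− parental replicate 1 or 2 they were 13 or 10 and 2.

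XRCC2 gave the clearest difference, falling in HPV− cells (from 59.6 and 65.4 to 43.1 and 44.8 CPM) and rising in HPV+ cells. Its difference was 0.98 on the log2 scale (SE 0.19, edgeR adjusted p = 0.00612). After these opposite changes the HPV− resistant libraries, at 43.1 and 44.8 CPM, lay just below the HPV+ resistant ones, at 46.2 and 50.8 CPM. RAD54B fell in HPV− cells and was at 19.3 and 20.3 CPM in HPV+ parental and 22.5 and 22.1 CPM in HPV+ resistant libraries. Its difference was 1.01 (SE 0.21, edgeR adjusted p = 0.00889). These 2 differences were kept in all 16 alternative settings, while each of the other 7 was lost in at least 6. The neighbours of RAD54B moved in the same directions as the gene, with medians of −0.41 in HPV− and 0.22 in HPV+ cells. Those of XRCC2 had medians of 0.13 and 0.005. The part of the neighbourhood in the RAD54B difference was not tested.

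SLX4 rose in HPV− cells and was at 24.8 and 23.2 CPM in HPV+ parental and 18.7 and 16.7 CPM in HPV+ resistant libraries, so that the resistant libraries were lower. The difference was −1.05 (SE 0.28, edgeR adjusted p = 0.0275), whereas the change within HPV+ cells did not pass by itself. PALB2 went from 33.9 and 45.4 to 30.1 and 31.8 CPM with resistance of the HPV− cells, and from 39.6 and 46.3 to 60.8 and 62.7 CPM with that of the HPV+ cells. Only the HPV+ resistant libraries stood clear above all others, and the difference was 0.88 (SE 0.23, edgeR adjusted p = 0.0281).

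For the checkpoint genes, TOPBP1 was at 190 and 209 CPM in HPV+ parental and 224 and 228 CPM in HPV+ resistant libraries, against its fall in HPV− cells. The difference was 0.78 (SE 0.21, edgeR adjusted p = 0.0300). CHEK1 went from 62.6 and 81.1 to 43.6 and 49.3 CPM with resistance of the HPV− cells, and from 42.1 and 46.9 to 53.0 and 47.3 CPM with that of the HPV+ cells. The HPV− parental cells were thus the high group, and the difference was 0.80 (SE 0.23, edgeR adjusted p = 0.0365). XRCC3 (1.02), FANCL (−0.69) and FANCF (−0.87) also passed. FANCG (0.84) was just outside, with an edgeR adjusted p of 0.0559. Neighbours of XRCC3 shared its signs. Their median was −0.20 after HPV− resistance (3 higher, 4 lower) and 0.31 after HPV+ resistance (6 higher, 0 lower, of 20). SLX4 neighbours (0.55, then −0.18) and TOPBP1 neighbours (−0.13, then 0.06) did likewise. PALB2 neighbours had medians of 0.22 and 0.35, and CHEK1 neighbours −0.072 and −0.075. FANCL neighbours had 0.005 and 0.18, and FANCF neighbours −0.01 and −0.04. The neighbourhoods' part in these differences was not tested. The remaining 32 differences did not pass, and for 20 of them the 95% interval lay within ±1, while for 12 it reached a 2-fold difference between the lines.

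The parental lines already differed widely before any treatment. In HPV+ parental against HPV− parental cells 9 repair genes were higher (FANCA, FANCC, FANCE, FANCF, FANCG, FANCL, BARD1, RAD51C and RBBP8) and 14 lower (FANCM, MUS81, BRCA1, RAD51D, XRCC2, XRCC3, RAD54B, RAD52, RAD50, NBN, BLM, ATM, ATR and CHEK1). Of all genes tested 58.0% were called, 28.0% higher and 30.0% lower, and the 23 repair genes amount to a share near this background. An unadjusted p under 0.05 was found for 11 and 15, against 62.0% of all genes, 30.0% higher and 32.0% lower. With a 2-fold change there were 2 higher (FANCC and FANCE) and 2 lower (MUS81 and RAD54B), against 17.7% and 19.3% of all genes. These comparisons use the same parental libraries as the comparisons within each line.

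The direction differed in part between the roles. Of the 8 core complex genes 6 were higher in HPV+ parental cells, 1 was lower and FANCB did not pass, with a median log2 fold change of 0.77. FANCE, which contacts FANCD2, was at 38.7 and 31.0 CPM in HPV− and at 97.2 and 95.8 CPM in HPV+ parental libraries, 2.77-fold higher (log2 fold change 1.47, SE 0.16, edgeR adjusted p = 2.94e-05). FANCC, its partner, was at 30.0 and 34.9 against 74.0 and 76.7 CPM (log2 fold change 1.22, SE 0.15, edgeR adjusted p = 5.26e-05). Both stood far apart between the lines, and in HPV+ resistant cells they remained at 91.6 and 111 CPM for FANCE and at 66.3 and 60.1 CPM for FANCC. FANCL, the ubiquitin ligase of the complex, was at 32.6 and 27.6 against 54.2 and 52.4 CPM (log2 fold change 0.83, SE 0.14, edgeR adjusted p = 0.000551). FANCF was at 9.03 and 9.69 against 17.1 and 18.8 CPM (log2 fold change 0.94, SE 0.18, edgeR adjusted p = 0.00123). The HPV− resistant level of FANCF, 15.1 and 17.1 CPM, thus came close to that of the HPV+ parental cells.

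Recombination genes that passed were mostly on the lower side. RAD51C, which acts in complexes with RAD51D, XRCC2 and XRCC3, was an exception. It was at 24.5 and 30.8 CPM in HPV− and 50.9 and 54.9 CPM in HPV+ parental libraries (log2 fold change 0.94, SE 0.15, edgeR adjusted p = 0.000414). BARD1, the partner of BRCA1, was also higher, at 28.7 and 35.8 against 47.0 and 54.2 CPM (log2 fold change 0.65, SE 0.17, edgeR adjusted p = 0.00723). So was RBBP8 (log2 fold change 0.54, SE 0.16, edgeR adjusted p = 0.0128). Of the 5 BRCA proteins and partners 1 was higher and 1 lower, with a median of 0.115. RAD51D, XRCC2 and XRCC3 were all lower in HPV+ parental cells. XRCC2 was at 59.6 and 65.4 CPM in HPV− against 34.8 and 35.0 CPM in HPV+ parental libraries (log2 fold change −0.84, SE 0.13, edgeR adjusted p = 0.000323). XRCC3 was at 117 and 81.7 against 58.3 and 47.95 CPM (log2 fold change −0.90, SE 0.20, edgeR adjusted p = 0.00349). In both genes the groups were apart, more narrowly so in XRCC3.

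MUS81 showed the largest fold between the parental lines among the genes that passed, at 100.1 and 58.0 CPM in HPV− and 23.6 and 23.8 CPM in HPV+ parental libraries. It was 3.33-fold lower in HPV+ cells (log2 fold change −1.74, SE 0.24, edgeR adjusted p = 0.000139), while its partner EME1 did not pass (−0.06). RAD54B was 2.13-fold lower (log2 fold change −1.09, SE 0.15, edgeR adjusted p = 0.000111) and RAD52 1.91-fold lower (log2 fold change −0.93, SE 0.21, edgeR adjusted p = 0.00296). RAD52 was at 13.1 and 11.4 CPM in HPV− and at 6.45 and 6.42 CPM in HPV+ parental libraries. RAD50, a subunit of the MRE11-RAD50-NBN complex, was at 114 and 142 against 77.3 and 84.0 CPM (log2 fold change −0.67, SE 0.15, edgeR adjusted p = 0.00295). The HPV− resistant levels of RAD54B (23.1 and 24.1 CPM) lay between those of the 2 parental lines, nearer to the HPV+ level.

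**Figure D5:**
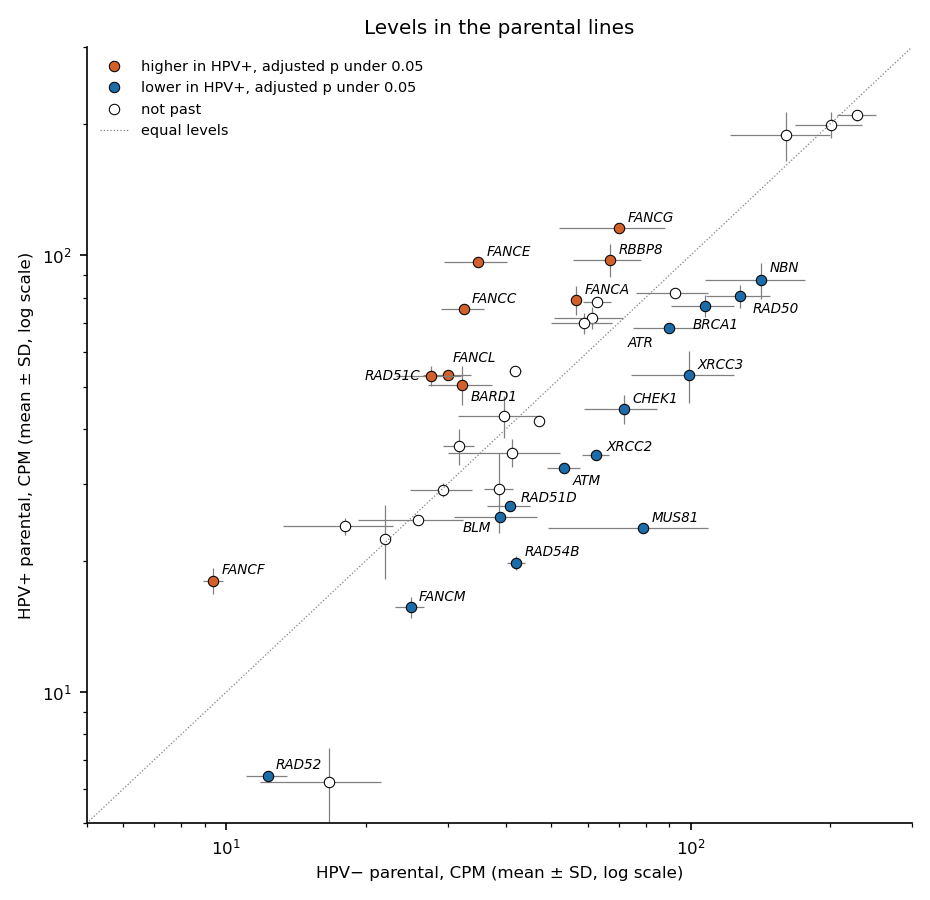
Mean level in CPM of each of the 41 repair genes in HPV+ parental (vertical axis) against HPV− parental cells (horizontal axis), both on log scales, with SD bars of 2 libraries per line; orange and blue points passed an adjusted p under 0.05 as higher or lower in HPV+ cells, and the dotted line marks equal levels. The core complex genes FANCC, FANCE, FANCF, FANCG, FANCL and FANCA lie above the line, and MUS81, RAD54B, XRCC2 and XRCC3 well below it.

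Other genes of these pathways were counted from fixed lists, against the same background of 26.8% of all genes called in HPV− and 18.1% in HPV+ cells. The share called in HPV− and HPV+ cells was 22.2% and 16.7% of the further Fanconi anemia genes, 28.2% and 12.8% of the recombination genes, 30.8% and 23.1% of the checkpoint genes, and 15.4% in both lines of the end joining genes. Taken over both directions, these shares lie near or below the background, or rest on few genes. By direction, with the lists in the same order, 16.7%, 25.6%, 30.8% and 7.69% were lower in HPV− cells, against 14.1% of all genes. Higher there were 5.56%, 2.56%, 0% and 7.69%, against 12.8%. In HPV+ cells 16.7%, 7.69%, 23.1% and 15.4% were lower, against 10.5%, and 0%, 5.13%, 0% and 0% were higher, against 7.65%. Of 18 further Fanconi anemia pathway genes 1 was higher and 3 lower in HPV− resistant cells, namely UHRF1 (log2 fold change −0.89), a crosslink sensor, RFWD3 (−0.62), a ubiquitin ligase, and MAD2L2 (−0.59) of the shieldin complex. In HPV+ resistant cells 3 were lower and 0 higher by edgeR, and 1 had a higher value with an unadjusted p under 0.05. The lower ones were EME2 (−1.41), an alternative partner of MUS81, SLX1A (−0.89), which shares reads with its near-identical copy SLX1B and is therefore uncertain, and CENPX (−0.81). EME2 went from 21.3 and 16.7 to 32.5 and 26.4 CPM in the HPV− cells and from 51.05 and 38.3 to 18.2 and 15.4 CPM in the HPV+ cells. It therefore rose in one line and fell in the other, a difference of −2.05 (SE 0.29, edgeR adjusted p = 0.00146), and 10 of its 20 neighbours were lower in HPV+ resistant cells.

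Of 39 other homologous recombination genes tested 10 were lower and 1 higher in HPV− resistant cells, among them POLQ (−0.81), the polymerase of end joining by microhomology, and SFR1 (−0.74). In HPV+ resistant cells 3 were lower and 2 higher, with H2AX (−1.02), the histone marked at breaks, RPA3 (−0.89), a subunit of the single-strand binding protein, and PAXIP1 (0.99). Among 13 further ATR and checkpoint genes 4 were lower in HPV− cells, including CDC25A (−1.44), TIMELESS (−1.31) and TIPIN (−1.24), the last 2 forming the fork protection complex, and 3 were lower in HPV+ cells (CDC25B, RAD9A and CDC25C, −0.67 to −0.60). By edgeR 0 of the 13 were higher in either line, also at an unadjusted p under 0.05. Of 13 nonhomologous end joining genes 1 was higher and 1 lower in HPV− cells, POLM (0.96) and APTX (−0.84), and 2 were lower in HPV+ cells, POLM (−0.86) among them.

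Which transcript carried a gene's reads was estimated by the quantification and not counted directly. In 26 of the 41 genes at least 80% of the counts were on protein-coding transcripts in every library. FAN1 was the 1 gene under 50% in every library, at 12.8% to 36.9%. In RAD50 a transcript marked for nonsense-mediated decay, RAD50-209, took 43.6% to 56.1% of the counts. The lines differed in MRE11, whose transcript MRE11-201 held 23.9% to 41% of the counts in the 4 HPV− libraries and 72.4% to 79.6% in the 4 HPV+ libraries, while its total did not pass the test between the parental lines (log2 fold change −0.18). In BRCA2 the transcript BRCA2-206 held 14.2% and 0% of the counts before and 31.0% and 66.5% after the HPV− cells became resistant, and 0% in all HPV+ libraries. These shares are estimates without a test.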

How the data were processed

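RNA-sequencing libraries prepared by polyA selection from 8 samples (4 groups of 2) were analysed. The authors quantified the reads with Salmon against GRCh38, per the labels and methods; which Salmon version and which annotation release they used is not given in the sources used here. Per transcript, the deposited tables hold estimated counts, TPM and effective lengths. The authors called genes with DESeq2 (adjusted p under 0.05, log2 fold change over 1).

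Transcript identifiers without version were matched to GENCODE 44: 172550 of 187432 matched, and 14882 transcripts (4.33% to 5.13% of counts) were left out. Every annotated transcript was listed for 22 of the 41 genes; FANCL had 6.41% of them, so its level rests on few. Estimated counts were summed per gene and rounded. Genes passing filterByExpr (15221) were fitted in edgeR 4.0.16 (R 4.3.3) with TMM factors, the robust quasi-likelihood test, 1 coefficient per group and all 8 libraries, which shared 1 spread (common dispersion 0.0326, 4 residual degrees of freedom). Adjusted p are Benjamini-Hochberg values over all 15221 genes. The script was tested on simulated data. SE is the log2 fold change divided by the root of F, and 95% intervals use the moderated degrees of freedom.

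Totals were 20250246 to 27341284 read pairs, and the 2 libraries of each group correlated at r = 0.975 to 0.988 over genes. They differed by more than sampling noise. The chi-square per gene was 57.2 in HPV− parental, 34.1 in HPV− resistant, 16.2 in HPV+ parental and 21.1 in HPV+ resistant cells. Alternatives were DESeq2 1.42.0, other scaling factors, a transcript length offset, other filters, protein-coding transcripts only, the 4 libraries of a comparison, a replicate block and leaving out each library. The genes and lists were chosen with earlier results of these data known. Full values were given for at most 6 genes past the threshold in each direction with the smallest p, for at most 6 differences between the lines, and for at most 3 genes of each related list; some genes of these lists are not reported here; the level of FANCB and the transcripts of FANCB, FAN1, BRCA2, MRE11 and RAD50 were singled out after their values were seen. Neighbours were the 10 tested genes on each side in GENCODE order.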

Additional observations from a re-analysis of the deposited data

Results flagged for a closer look

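For 9 genes the change upon resistance differed between the HPV+ and HPV− lines in edgeR's test of that difference. The change in HPV+ cells minus that in HPV− cells was 0.98 on the log2 scale for XRCC2, 1.01 for RAD54B, 1.02 for XRCC3, 0.88 for PALB2, 0.80 for CHEK1 and 0.78 for TOPBP1. It was −1.05 for SLX4, −0.87 for FANCF and −0.69 for FANCL. Of all genes tested 16.7% differed in this way. XRCC2 and RAD54B kept the call in all 16 alternative settings. Among the others, FANCF was lost in 11 settings, FANCL in 10, XRCC3 in 8, SLX4, CHEK1 and TOPBP1 in 7 each and PALB2 in 6. XRCC2 was the 1 gene that passed with opposite signs in the 2 lines, at −0.51 in HPV− and 0.47 in HPV+ cells.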

How the results depend on the processing

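No direction of a called gene was reversed under any alternative, and 123 of 140 recounts outside the leave-one-out fits stayed within 1.5 times of the count reported. In HPV− cells the 2 higher genes became 1 with the 4 HPV− libraries alone or a transcript length offset and 6 (beside 9 lower) with upper-quartile factors; lower genes with a 2-fold change went from 0 to 1 with the 4 libraries and 3 with the length offset. In HPV+ cells the 4 HPV+ libraries alone gave 8 higher and 4 lower in place of 2 and 0. For the difference between lines DESeq2 gave 10 higher and 1 lower in place of 6 and 3, and the length offset 0 lower; with a 2-fold difference, the 2 higher became 0 with upper-quartile factors and 0 with protein-coding transcripts, and the 1 lower became 0 with the length offset. Between the parental lines, genes with a 2-fold change numbered 4 higher (in place of 2) with upper-quartile factors and 6 lower (in place of 2) with the length offset, and the median over the 41 genes went from −0.06 to 0.02 with upper-quartile factors. The causes were not tested. Upper-quartile factors moved the median of all genes by at most 0.08 on the log2 scale.

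Leaving out each library in turn gave 1 to 2 higher and 3 to 13 lower genes in HPV− cells, 0 to 7 and 0 to 1 in HPV+ cells, 2 to 13 and 0 to 2 for the difference, and 7 to 11 and 10 to 17 between the parental lines. With a 2-fold change the ranges were 0 to 0 and 0 to 3, 0 to 0 and 0 to 0, 1 to 5 and 0 to 1, and 2 to 3 and 2 to 4. A group left with 1 library was assumed to vary like the others, and the share of all genes called in these fits is not given here. Without either HPV+ resistant or either HPV+ parental library the differences called were 2 higher and 0 lower.

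Whether the replicate numbers pair the samples is not known. Libraries with the same number correlated at −0.07 to 0.14 in their deviations from group means. No strong shared shift was thus seen, but with 2 libraries a group this cannot show that the numbers are unpaired. With the replicate number as a block, 1 gene was higher and 9 lower in HPV− cells, 3 and 0 in HPV+ cells, 5 and 2 for the difference and 9 and 13 between the parental lines; with a 2-fold change the difference had 1 higher and 1 lower. With 2 libraries a group, the 95% intervals reached a median of 0.36 to either side on the log2 scale within each line and 0.51 for the difference, which limits what could be called.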
